A study of Glycine max with 16 samples.

Results

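In watered soybean leaves, 135 genes stood higher in the line A004A than in each of the other 3 lines studied. They were picked from the authors' table of RPKM (read counts scaled to gene length and to the mapped reads of a library), which lists 56044 genes. Genes with at least 1 RPKM in 2 or more of the 8 columns were kept, which left 34400. A kept gene was counted as a member when its log2(RPKM + 1) in watered A004A exceeded the highest of the 3 other watered lines by 1 or more. These 135 genes are 0.392% of the kept genes, and without the null line in the comparison 315 genes would have been counted. The watered values therefore chose the members and are given as a description, with no test.

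The study measured leaf RNA of Glycine max seedlings grown in soil in a greenhouse. A004A, A005B and B010C are transgenic lines over-expressing GmWRKY54, and B001A is the null line used as the control. Trifoliate leaves came from seedlings 2 weeks old, either well watered or after 6 h of dehydration in air, called dried here. The labels list 16 samples in 8 groups of 2, and the table holds 1 column per group, so there is 1 value for each line and treatment and no spread within a group. The sources used here do not state the promoter of the transgene, how the lines were made, or whether the samples of a group were separate plants, so p-values measure only the spread between these columns.

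WRKY proteins are a large plant family of DNA-binding transcription factors. They bind a short promoter element called the W box and are known for roles in defence, senescence and responses to drought and abscisic acid, the hormone that closes stomata when a leaf loses water. Lines that carry the same transgene can differ from each other in where and how strongly it is expressed. A gene high in a single line is therefore described here for that line's samples only, and its tie to the transgene was not tested. The identifiers in the table are not paired with gene names, and 0 of them matched the RefSeq gene table, so members are given by identifier. The level of GmWRKY54 and the markers of leaf tissue were for the same reason not checked, and no protein function is given for a member.

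The summed RPKM of a column lay between 636011 and 818267, between 28847 and 31333 genes reached 1 RPKM, and the number of reads behind a value is unknown. In some genes the watered and dried columns of a line went against each other. Of the kept genes, 39 were at least 1 on the log2 scale higher in watered A004A and null than in the 2 other watered lines, and likewise higher in dried A004A and A005B than in the 2 other dried lines. Only 2 kept genes were high in A004A and A005B in both treatments, and 0 in A004A and null in both. The choice of the members does not depend on which of the watered columns is null and which is A005B, because the rule takes the highest of the 3 other lines. Changes on drying in null and A005B do depend on it. Their main counts and medians are given with the labels as they stand and exchanged.

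In watered A004A the members ranged from 1.01 to 277 RPKM, with a median of 7.16 RPKM. Their medians were 0.896 RPKM in watered null, 0.283 RPKM in watered A005B and 0.236 RPKM in watered B010C. All kept genes had watered medians between 5.82 and 6.04 RPKM in the 4 lines. In watered A004A the members' levels were spread much as those of all kept genes, with 54 members under 5 RPKM (45.3% of kept genes), 57 between 5 and 20 RPKM (37% of kept genes), and 24 at 20 RPKM or more (17.7% of kept genes). As shares of the members these are 40%, 42.2% and 17.8%. Here and below, a percentage of kept genes in brackets is the share of all kept genes with the same property. Together they made up 0.420% of all RPKM in watered A004A, against 0.0356% to 0.0878% in the other watered columns.

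The gap between watered A004A and the next line had a median of 1.50 on the log2(RPKM + 1) scale and reached 5.83. Glyma.10G043100, on chromosome 10 by its identifier, had the widest gap, at 63.9 RPKM in watered A004A against 0.0601 RPKM in null, 0.140 RPKM in A005B and 0.0850 RPKM in B010C. In dried leaves the same gene stood at 40.6 RPKM in A004A, 67.5 RPKM in A005B and 0.107 RPKM in null, and was listed at 0 in B010C. It was thus high in 3 of the 8 columns, which were both A004A columns and dried A005B. Glyma.14G220900 had the next widest gap, with 28.9 RPKM in watered A004A, 0.319 RPKM in null, 0.0159 RPKM in B010C and a listed 0 in A005B. It stood at 4.46 RPKM in dried A004A and 12.1 RPKM in dried A005B, and at no more than 0.0185 RPKM in dried null and B010C. Both genes were high in the same 3 columns.

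The most abundant members were less clearly off elsewhere. Glyma.09G188800 reached 277 RPKM in watered A004A, 75.7 RPKM in null, 52.1 RPKM in A005B and 4.51 RPKM in B010C, and lay between 4.72 and 10.6 RPKM in the 4 dried lines. Watered A004A was 3.66 times the next line, and the dried values did not set A004A apart. Glyma.18G210900 stood at 276 RPKM in watered A004A, 53.6 RPKM in null, 16.3 RPKM in A005B and 16.2 RPKM in B010C. Dried, it was at 373 RPKM in A004A, 574 RPKM in A005B, 138 RPKM in null and 130 RPKM in B010C, so that all 4 dried lines carried it and A004A and A005B were the 2 highest. Glyma.09G278000 stood at 274 RPKM in watered A004A, 45.0 RPKM in null, 4.74 RPKM in A005B and 4.10 RPKM in B010C. On the dried side it was at 282 RPKM in A004A, 570 RPKM in A005B, 5.28 RPKM in null and 3.04 RPKM in B010C. A004A was high in both treatments and A005B only when dried, and watered null lay in between.

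In 25 members (0.483% of kept genes) the 3 other watered lines were all listed at 0, where an exact 0 may also be a failed estimate and no fold is given. These genes were low in watered A004A too, with a median of 3.48 RPKM and a highest value of 15.9 RPKM. At the other end, the members nearest the limit were Glyma.10G248200, with a gap of 1.01, from a listed 0 in the other lines to 1.01 RPKM in A004A, and Glyma.11G003200, also with a gap of 1.01, from at most 10.1 RPKM to 21.3 RPKM. Just outside it were Glyma.16G056300, with 5.85 RPKM against at most 2.43 RPKM (0.998), and Glyma.04G101600, with 2.07 RPKM against at most 0.538 RPKM (0.996). Genes on either side of the limit thus hardly differed.

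**Figure D1:**
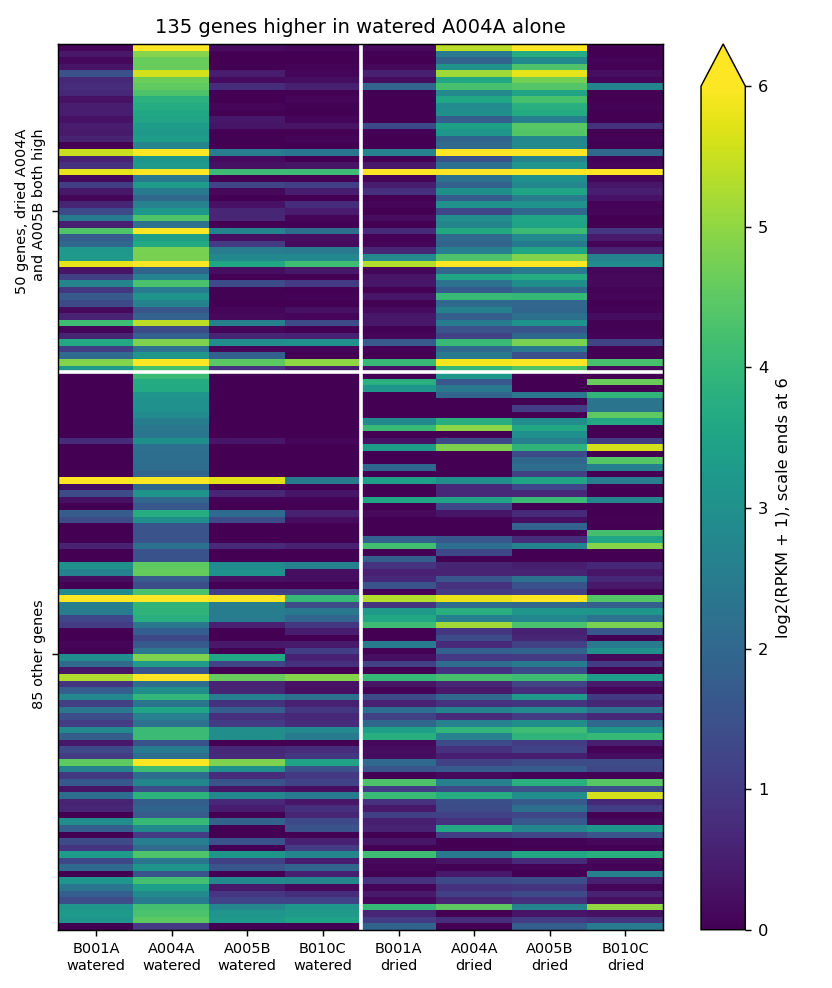
Levels of the 135 members as log2(RPKM + 1), 1 row per gene and 1 column per line and treatment, ordered within each block by the watered gap. The upper block holds 50 genes that were also high in dried A004A and dried A005B, and the lower block the other 85, among which the dried pattern is mixed.

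The dried columns did not enter the rule except through the filter on low values, and they show whether the members stayed apart. Few did so in A004A alone. Dried A004A lay at least 1 above the highest other dried line in 3 of the 135 members, where 0.105% of kept genes did, and above it by any amount in 22, where 13.2% of kept genes did. Those 3 are listed at 0 in every column of the other lines and passed the filter only through A004A, which fixes their dried gap. Among the 67 members with at least 1 RPKM in 2 or more watered columns, which passed the filter on watered values alone, the number was 0, where 0.0765% of all genes passing in the same way did. Without A005B in the comparison it was 54 of the 135, where 1.09% of kept genes did. The filter can raise this number, because some members passed it only with a dried value of A004A. Among the 67, dried A004A lay at least 1 above dried null in 26, or 38.8%, and at least 1 above dried B010C in 25, or 37.3%. Of all genes passing in the same way, 1.53% and 1.2% did. Dried A005B was the highest of the 3 other lines in 93 members, null in 14 and B010C in 24, whereas over kept genes these shares were 31%, 48.2% and 20.6%.

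Dried A004A and dried A005B were instead high together. Dried A004A lay at least 1 above dried null in 63 members, or 46.7%, where 2.76% of kept genes did. It lay at least 1 below dried null in 10, or 7.41%, near the 8.1% of kept genes. Against dried B010C the numbers were 60 above (1.71% of kept genes) and 18 below (4.82% of kept genes). Against dried A005B, A004A was at least 1 above in 7 members (0.674% of kept genes) and at least 1 below in 20 (0.974% of kept genes). Between the remaining lines, dried B010C lay at least 1 above dried null in 15 members (1.97% of kept genes) and at least 1 below it in 7 (0.985% of kept genes). A004A was thus most often apart from null and B010C. Dried A005B lay at least 1 above both dried null and dried B010C in 63 members, where 1.46% of kept genes did. In 50 members, or 37%, both A004A and A005B lay at least 1 above both null and B010C after drying, a pattern found in 0.814% of kept genes. With a pseudocount of 3 in place of 1 the number was 32. Asked only that dried A004A lie at least 1 above dried null and dried A005B at least 1 above dried B010C, which all 50 do by their choice, 1 more member qualified, 51 in all (0.913% of kept genes). These are counts of single columns without a replicate check.

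The filter could raise such counts, because a gene that is low in the other watered lines passes it only with a second column at 1 RPKM. Among the 67 members that passed on watered values alone, 22 showed the pattern of A004A and A005B both high, or 32.8%, where 0.52% of all genes passing in the same way did. With no filter, 178 genes fulfilled the watered rule and 50 of them, 28.1%, showed it, where 0.5% of all genes in the table did.

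**Figure D2:**
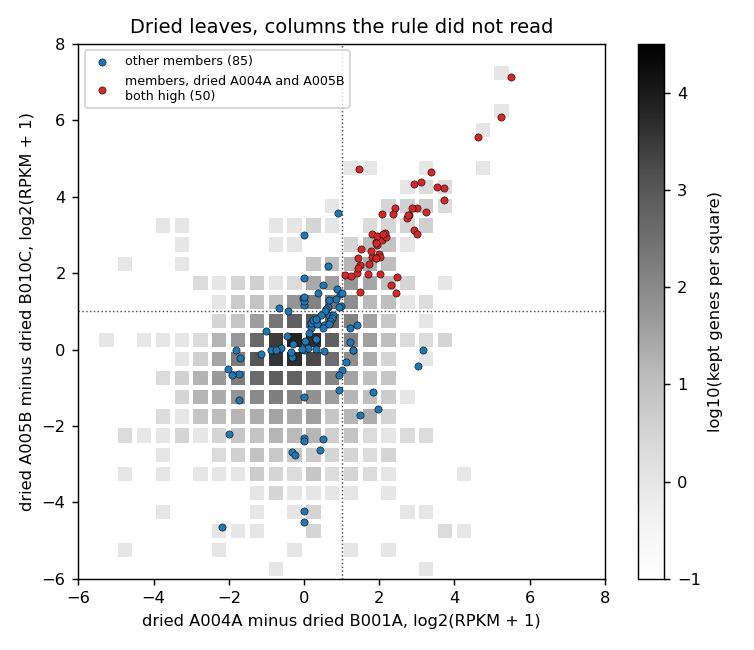
Dried A004A minus dried B001A (null) against dried A005B minus dried B010C, both as differences of log2(RPKM + 1), so that the axes share no column. Grey squares give the number of kept genes on a log10 scale, points are members, and dotted lines mark a difference of 1. The 50 members in red lie above 1 on both axes, as their choice requires, and the other 85 spread widely to both sides of 0 on each axis.

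In the 50 genes, the median level was 9.89 RPKM in watered A004A, 5.43 RPKM in dried A004A and 10.2 RPKM in dried A005B. In watered A005B it was 0.158 RPKM, in watered B010C 0.0840 RPKM, in dried null 0.0843 RPKM and in dried B010C 0.0513 RPKM. Of the 50, 35 stayed under 1 RPKM in each of these 4 low columns, as did 21 of the other 85 members and 1.93% of kept genes. The rule holds watered A005B and B010C low, and the choice of the 50 holds dried null and B010C low. The higher share among the 50 is therefore built in and is only a description. Dried A005B exceeded dried A004A in 45 of the 50, at a median of 171% of its level, with the middle of the genes between 148% and 210% from the lower to the upper quartile. The same order, A005B above A004A, held in 71.1% of all kept genes in dried leaves. Dried A004A stood at a median of 60.2% of watered A004A in the 50 genes, with quartiles of 31.4% and 92.5%. In bulk leaf RNA, more cells of a type and more RNA per cell cannot be told apart.

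Watered null took a middle place in these genes. Its median was 0.648 RPKM, and it was at a median of 10.9% of watered A004A, compared with 2.17% for watered A005B and 1.01% for watered B010C. It was the highest of the 3 other watered lines in 39 of the 50 genes, and in 75 of all 135 members, where 38.7% of kept genes had null highest. In dried leaves the same line stood at a median of 1.50% of dried A004A. A low dried null is part of the choice of the 50 genes, so the lower share is no sign of a fall. Of the 39 genes named above that were high in watered A004A and null and in dried A004A and A005B, 13 were members. The part of the watered labels in this order was not tested.

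In 3 members A004A alone had a value above 0. Glyma.13G307500, on chromosome 13 by its identifier, reached 15.9 RPKM in watered A004A and 7.996 RPKM in dried A004A, and was listed at 0 in the other 6 columns. Glyma.07G214400 stood at 2.13 and 1.48 RPKM and was likewise listed at 0 elsewhere. The third gene of this kind, Glyma.10G246900, stood at 1.87 and 1.45 RPKM. A gene listed at 0 in the 6 columns of the other lines (0.00872% of kept genes) passes the filter only with 1 RPKM or more in both A004A columns, so it is a member, and high in dried A004A, by construction. The reads behind these values are unknown.

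The dried columns were tested with limma, a linear model for all genes at once, setting A004A against the mean of the 3 other lines. The test assumes that the lone A004A column varies as the other lines do, and its p-values measure the spread between lines. With so few columns, a lack of calls does not show a lack of difference. At an adjusted p under 0.05, limma called 0 of the 135 members and 0% of kept genes. At an unadjusted p under 0.05 there were 11 members, or 8.15%, and 6.69% of kept genes. For Glyma.13G307500 and the other 2 genes listed at 0 outside A004A which are 3 of these 11, the filter fixes a gap, so their values are no test. The largest difference was that of Glyma.09G278000, at 3.54 ± 2.85 SE (limma adjusted p = 0.713), where the high value of dried A005B lies among the lines compared. Over members the median difference was 0.50 and over all kept genes -0.16. Without null these were 0.32 and -0.12. Without A005B, the median difference over members was 0.72, where that of all kept genes was -0.17. In 40 members all watered and dried columns of null and B010C and watered A005B were under 1 RPKM. Those 40 passed the filter only through A004A and dried A005B. The filter therefore sets part of the members' median differences, with or without A005B, and these are no test.

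In the opposite direction, 5 members lay at least 1 below the lowest other dried line in A004A (0.392% of kept genes), so that their order between lines turned round. Of the 67 members that passed the filter on watered values alone, 3 did so, or 4.48%. Of all genes passing in the same way, 0.392% did. Glyma.16G017000 stood at 3.35 RPKM in watered A004A and was listed at 0 in the 3 other watered lines. Dried, it was listed at 0 in A004A and stood at 3.05 RPKM in null, 3.39 RPKM in A005B and 5.19 RPKM in B010C (log2 difference -2.26 ± 0.33 SE, limma adjusted p = 0.666). Glyma.10G248200 followed the same course, from 1.01 RPKM in watered A004A to a listed 0, and from a listed 0 to 2.79 RPKM in null, 2.47 RPKM in A005B and 4.53 RPKM in B010C. Neither passed the test. With a listed 0 in dried A004A and the other watered lines, both genes needed a dried value of another line to pass the filter. The filter thus favours such a turn in them. Dried A004A was listed at 0 in 14 members in all (0.89% of kept genes).

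**Figure D3:**
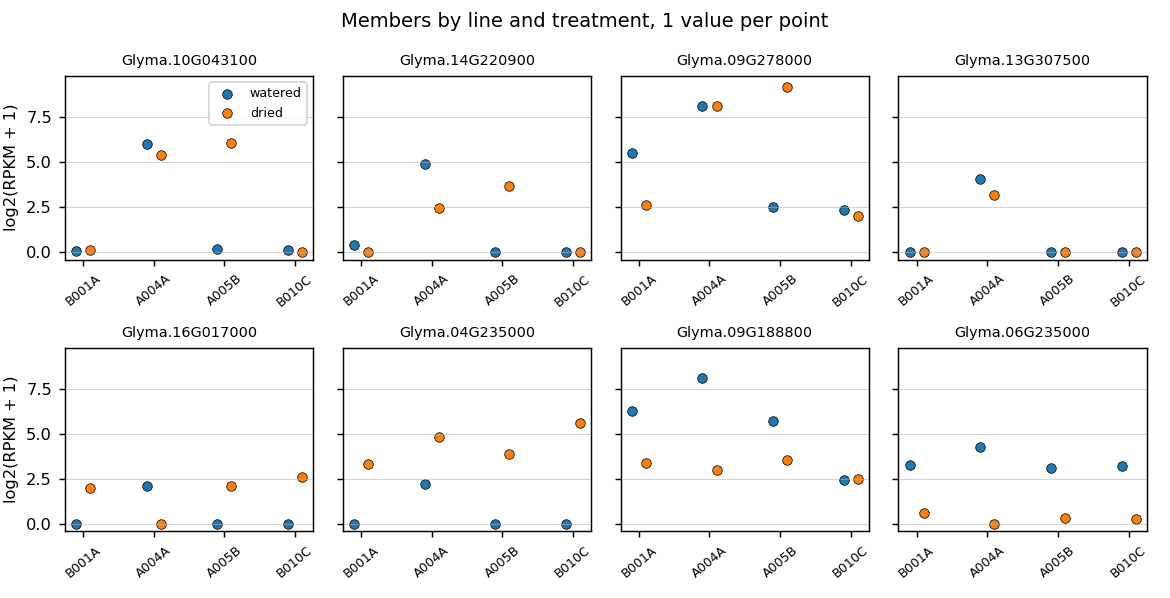
Levels of 8 members as log2(RPKM + 1) by line, with watered values in blue and dried values in orange, 1 value per point and no error bar. In Glyma.10G043100, Glyma.14G220900 and Glyma.09G278000 the highest points are both A004A values and dried A005B. In Glyma.09G278000 watered null, at 45.0 RPKM, lies between these and the other points. In Glyma.13G307500 only the A004A values are high, and in Glyma.16G017000 the order of A004A and the other lines turns round on drying.

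Changes on drying differed between the lines for the members, and are given as a description because the rule chose high watered values in A004A and capped those in the other lines. In A004A, 72 members were at least 1 lower after drying (28.3% of kept genes) and 6 at least 1 higher (16.7% of kept genes), with a median change of -1.17 on the log2(RPKM + 1) scale. In A005B, 81 members were at least 1 higher (17.7% of kept genes) and 13 at least 1 lower (23.7% of kept genes), with a median of 1.36. With the watered null and A005B columns exchanged, these counts for A005B were 73 and 18, with a median of 1.10. In null, 21 members were at least 1 higher (15.8% of kept genes) and 41 at least 1 lower (17.9% of kept genes), and with the columns exchanged 23 and 26. The median change in null was -0.37, and 0 with the columns exchanged. In B010C, 32 members were at least 1 higher (17.6% of kept genes) and 16 at least 1 lower (23.4% of kept genes). Of the 81 members at least 1 higher in dried A005B, 48 were among the 50 genes high in dried A004A and A005B, or 42 of 73 with the columns exchanged. In null and in B010C 2 of the 50 were at least 1 higher, and 4 in null with the columns exchanged. Those 50 were picked on dried values, so a high dried A005B is part of their choice.

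**Figure D4:**
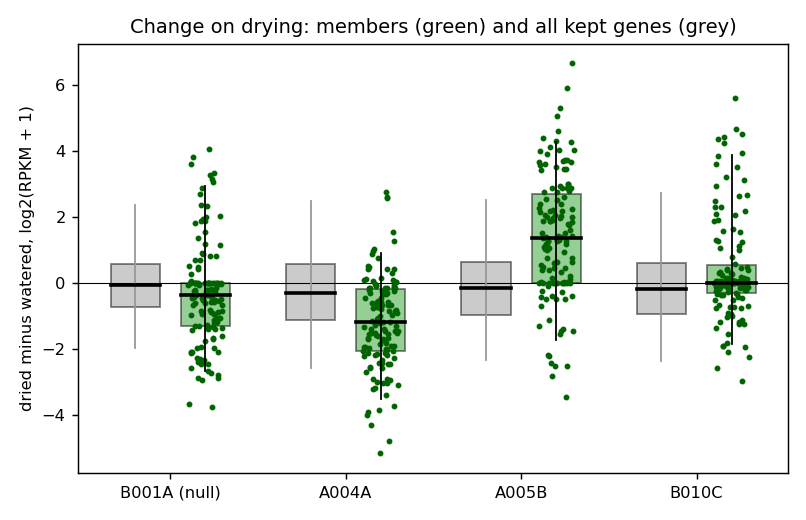
Dried minus watered log2(RPKM + 1) in each line, for all 34400 kept genes (grey) and the 135 members (green, 1 point per gene). Boxes span the quartiles, thick bars are medians and thin lines run from the 5th to the 95th percentile. The medians of the members are -0.37 in B001A (null), -1.17 in A004A, 1.36 in A005B and 0.00 in B010C. With the watered null and A005B columns exchanged they would be 0 in B001A and 1.10 in A005B.

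Some members changed on drying in the same direction in all 3 other lines. Each of null, A005B and B010C rose by at least 1 on drying in 10 members (12% of kept genes), or 20 when null was left out. With the watered null and A005B columns exchanged the number was 11. Glyma.04G235000 stood at 3.64 RPKM in watered A004A and was listed at 0 in the 3 other watered lines. Dried, it was present in all lines, at 9.02 RPKM in null, 27.2 RPKM in A004A, 13.9 RPKM in A005B and 47.6 RPKM in B010C. Glyma.06G270400 went from 1.10 to 16.6 RPKM in null, from 0.453 to 18.2 RPKM in A005B, from 0.948 to 26.7 RPKM in B010C and from 4.26 to 34.5 RPKM in A004A. In both genes watered A004A lay between the watered and dried levels of the other lines.

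In a further 6 members each of the 3 other lines fell by at least 1 (13.9% of kept genes), a number that was 14 without A005B and 13 without B010C. With the watered null and A005B columns exchanged it was 9. Glyma.06G235000 went from 18.6 to 0.0127 RPKM in A004A, from 8.65 to 0.545 RPKM in null, from 7.72 to 0.258 RPKM in A005B and from 8.51 to 0.214 RPKM in B010C. Glyma.11G003200 went from 21.3 to 0.691 RPKM in A004A and from between 7.96 and 10.1 RPKM to between 0.884 and 1.09 RPKM in the other lines. Here A004A started highest and ended lowest among the 4 lines in both genes. In all, 30 members ended within 1 of each other in the 4 dried lines (83.7% of kept genes), and in 16 members all 4 dried lines were under 1 RPKM (8.63% of kept genes).

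The first digits of a soybean identifier give its chromosome and the following number its order along it. Members lay on all 20 chromosomes, from 2 on chromosome 1 to 13 on chromosome 13, or between 0.138% (chromosome 1) and 0.595% (chromosome 20) of the kept genes of a chromosome. Neighbouring entries of the table that were both members formed 4 pairs, with 8 genes or 5.93% of members. The share was 5.41% for the 111 genes higher in watered A005B alone and 4.81% for the 208 lower in watered A004A alone. It was 0 for the 37 genes higher in watered null alone and for the 35 higher in watered B010C alone. Smaller sets hold fewer possible pairs, so these shares are not on equal terms. Glyma.11G153200 and Glyma.11G153300 had nearly the same course, at 23.3 and 24.1 RPKM in watered A004A, 7.28 and 11.0 RPKM in dried A004A and 19.0 and 26.0 RPKM in dried A005B, and at no more than 0.273 and 0.608 RPKM in any other column. Glyma.13G343000 and Glyma.13G343100 stood at 9.09 and 22.2 RPKM in watered A004A, 9.64 and 18.0 RPKM in dried A004A and 20.8 and 20.1 RPKM in dried A005B, and at no more than 1.54 and 5.48 RPKM elsewhere. Neighbours can be tandem copies with shared reads, and the sources used here do not state how such reads were assigned, so the split within a pair is uncertain.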

How the data were processed

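Leaf RNA sequencing of 16 samples was used as the authors' deposited RPKM table, with 8 columns, 1 per line and treatment, tied to their groups by column name, and 0 columns were left without a group. TopHat is listed, with its version unstated, per the submitters' processing notes. The sources used here do not state the counting program, genome build, annotation or any pooling of samples. Levels were used as log2(RPKM + 1), which understates the change of low genes. The members and lists were chosen with earlier results of these data known. Limma 3.58.1 (R 4.3.3) was fitted to the 4 dried columns, with a trend, two-sided tests and Benjamini-Hochberg adjustment over 34400 genes. It was first run on simulated data with less spread than the real columns, which does not show its power here. Counts and medians came from Python 3.11.15 with pandas 2.3.3. Depth is unknown, so no count test or interval was made.

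The genes named were set to be the members with the widest watered gap (at least 5 RPKM), the highest watered A004A level, the largest limma difference, the widest dried gap either way, the largest shared changes on drying, those beside the limit and neighbours. Of each, 2 in each direction were printed, since identifiers carry no names, and Glyma.09G278000 and Glyma.10G246900 were added from further down the same orders. Lists by function, tissue markers and promoter motifs could not be built. Alternatives covered pseudocount, filter, scaling, the limma settings, each other line left out and, chosen after seeing the data, the exchange of 2 watered columns.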

Additional observations from a re-analysis of the deposited data

Results flagged for a closer look

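In 5 members A004A stood at least 1 above every other line when watered and at least 1 below every other line when dried, on the log2(RPKM + 1) scale, so the order of the lines was opposite in the 2 treatments. The widest such fall below the lowest other dried line was -2.02 for Glyma.16G017000, followed by -1.80 for Glyma.10G248200. Both genes passed the filter only with a dried value of another line, which favours such a turn. The difference between the treatments was not tested, since each line has 1 value per treatment.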

How the results depend on the processing

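No paired analysis was possible because the table holds 1 column per group and carries no replicate numbers. The number of genes fulfilling the watered rule was 135, and 260 with a pseudocount of 0.1, 66 with 3, 45 with a mean of at least 5 RPKM, and 162 to 315 with 1 other line left out, highest without B001A. Members at least 1 above the highest dried line numbered 3, and 5 with a pseudocount of 0.1, 1 with 3, 0 with the mean filter, 5 after median-of-ratios scaling, 5 after quantile normalization and 3 to 54 with a line left out, highest without A005B. Limma calls among members were 0, and 1 over all 8 columns and 3 with no filter. With a line left out they were 0 to 30, again highest without A005B. Of all genes fitted, limma called 0.00581% over all 8 columns, 1.23% with no filter and 0.227% without A005B. The fit over all 8 columns includes the watered columns that chose the members, so its call is no test of them. The fit with no filter still counted the 135 members that the filter had let in, so the filter bears on its calls too. The filter sets part of the members' dried difference, with or without A005B, as stated above. The median dried difference was 0.50, and 0.88 and 0.22 with pseudocounts of 0.1 and 3 and 0.32 to 0.72 with a line left out, while the median of all genes moved from -0.16 to -0.03 after median-of-ratios scaling and to 0 after quantile normalization. Members with dried A004A and A005B both high were 50, 32 with a pseudocount of 3 and 20 of the 45 left by the mean filter, which by its construction also lowered those with dried A005B high from 63 to 21 and those falling in A004A from 72 to 21. Shared rises in the 3 other lines went from 10 to 18 and shared falls from 6 to 11 with a pseudocount of 0.1, and to 13 to 20 and 6 to 14 with a line left out, with 20 rises without B001A and 14 and 13 falls without A005B and without B010C. The cause of these moves was otherwise not tested. The other 66 alternative values stayed within 1.5 times the main value. Depth is unknown, so how many reads stand behind a low value or a listed 0 cannot be given.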
